A study of Mus musculus with 10 samples.

Results

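The mitochondrial ribosome is the particle inside mitochondria that translates the few proteins encoded by mitochondrial DNA, all of them core parts of the respiratory chain or of ATP synthase. Its protein components are encoded in the nucleus, made in the cytosol and imported, and they assemble with mitochondrial ribosomal RNA into a small subunit, which holds the messenger, and a large subunit, which joins the amino acids. Cells rich in mitochondria, such as brown adipocytes and striated muscle fibres, need many of these particles. Here the transcripts of these proteins were followed in mouse aorta. The members were all genes whose symbol in the platform annotation begins with Mrpl or Mrps followed by a digit, each read on the probe set with the highest mean over all 10 arrays. That gave 76 genes of the 18193 with a probe set of their own, 47 named for the large subunit and 29 for the small subunit, and they were read from 156 probe sets in all. Another 4 probe sets, which name Mrpl30, Mrpl53 or Mrps34 together with a second gene, were not used.

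Aortas of male Npas2 mutant mice on a C57Bl/6J background gave 5 arrays, and aortas of male wild-type C57Bl/6 mice gave 5. The Npas2 protein is a clock transcription factor that binds E-boxes together with the product of Bmal1. Before collection all mice lived in 12 h light and 12 h dark cycles for 2 weeks or more and then in constant darkness for 30 h or more, and tissue was taken at zeitgeber time 14 h. The sources used here do not say what the mutation is, how old the mice were or whether any arrays share a mouse, so a p reflects only how far these arrays spread. The wild-type strain name lacks the J of the mutants' background, so a difference of substrain cannot be told apart from the mutation.

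The levels below are log2 values of Affymetrix MOE 430V2 probe sets, and they are compared between groups within a probe set and not between genes. The upper quartile of all values lay between 5.40 and 5.55 on each array. Precision is limited by the small number of arrays. Npas2 itself was dim on probe set 1421037_at, at 3.43 ± 0.03 (SD, n = 5) in the mutant and 3.71 ± 0.24 (SD, n = 5) in wild type (limma adjusted p = 0.249), and it does not check the labels. Smooth muscle markers, which define the aortic wall, were bright on all arrays, with a list mean between 10.99 and 11.31 on the mutant arrays and between 11.12 and 11.41 on the wild-type arrays. Skeletal muscle markers varied widely, with list means between 3.53 and 10.49 on the mutant arrays and between 3.48 and 9.61 on the wild-type arrays. Brown fat, a tissue packed with mitochondria, lies around the thoracic aorta, and its markers are described below with the members. In bulk tissue, fewer cells of a type and less RNA per cell cannot be told apart.

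The sequences that lie in front of these genes are shown first, because their promoters are known for binding sites of NRF1, GABP (a factor of the ETS family) and YY1, and because the E-box is the site of the Npas2 protein. RefSeq windows of assembly GRCm38.p6, from 250 bases before to 50 bases after the gene start, were available for 67 of the 76 members. The 5 stretches below are those of genes described further on in which a motif and the 30 bases that follow it lie before the gene start. Capitals mark the motif, and each stretch reads 5′ to 3′ on the strand of its gene.
Mrpl39, chr16:84735330-84735399, minus strand, with the NRF1 core starting 125 bases before the gene start: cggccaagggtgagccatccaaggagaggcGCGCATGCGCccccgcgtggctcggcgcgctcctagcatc
Mrpl51, chr6:125192080-125192147, plus strand, with the ETS motif 90 bases before: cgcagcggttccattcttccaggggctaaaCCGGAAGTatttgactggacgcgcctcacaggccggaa
Mrps18b, chr17:35916626-35916690, minus strand, with the NRF1 core 223 bases before: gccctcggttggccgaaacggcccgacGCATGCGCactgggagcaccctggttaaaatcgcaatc
Mrps18c, chr5:100798566-100798639, plus strand, with an E-box followed directly by an ETS motif, 163 bases before: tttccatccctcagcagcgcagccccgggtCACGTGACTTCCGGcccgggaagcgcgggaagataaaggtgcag
Mrps27, chr13:99344707-99344774, plus strand, with the ETS motif 49 bases before: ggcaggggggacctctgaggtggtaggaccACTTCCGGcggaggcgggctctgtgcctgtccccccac
The motifs searched, on both strands, were CCGGAAGT for ETS, GCGCATGC for the NRF1 core, AAGATGGCG for YY1 and CACGTG for the E-box. At Mrpl39 the NRF1 core matches both strands over nearly the same bases, and all the matching bases are in capitals. At Mrps18b, Mrps18c and Mrps27 the ETS motif or NRF1 core reads on the opposite strand.

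The ETS motif was in the window of 12 members, or 17.9% of the 67, against 4.31% of 27025 genes. The NRF1 core was in 8 members (11.9%, against 3.05% of genes) and the YY1 motif also in 8 (11.9%, against 1.64%). At least 1 of these 3 motifs was in 26 members, or 38.8%, against 8.47% of all genes. The E-box was in 5 members, Mrpl2, Mrpl20, Mrpl36, Mrpl37 and Mrps18c, which is 7.46% of members against 8.09% of genes. The changes of these 5, mutant minus wild type, were 0.31, 0.16, 0.11, 0.21 and 0.06 on the log2 scale. The members' windows were richer in G and C, with a median of 58.7% against 52.7% over all windows, and these shares are not corrected for that. A match of letters is a description and not a bound site.

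Nearly all members had a slightly higher mean in mutant aorta, and no single gene passed the test. Mutant means were above wild-type means for 74 of the 76 members and below for 2, where 44.1% of the 10943 tested genes were above. The median change of the members, mutant minus wild type, was 0.17 on the log2 scale, and that of all tested genes was -0.02. The members' changes ran from -0.07 to 0.47, with standard errors from 0.05 to 0.16. At a limma adjusted p of 0.05, 0 of 76 were called, where 0.183% of tested genes were (0.119% higher and 0.0640% lower in the mutant), and the lowest adjusted p among members was 0.103. At an unadjusted limma p of 0.05, 29 members were higher in the mutant, where 5.21% of tested genes were, and 0 were lower, where 9.83% of tested genes were. The groups did not overlap for 7 members, all higher in the mutant, where 1.82% of tested genes separated in that direction, and 0 members separated the other way, where 2.39% of tested genes did. All 76 members were above the array's own median on every array of both groups, so none entered the test through 1 group alone.

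**Figure D1:**
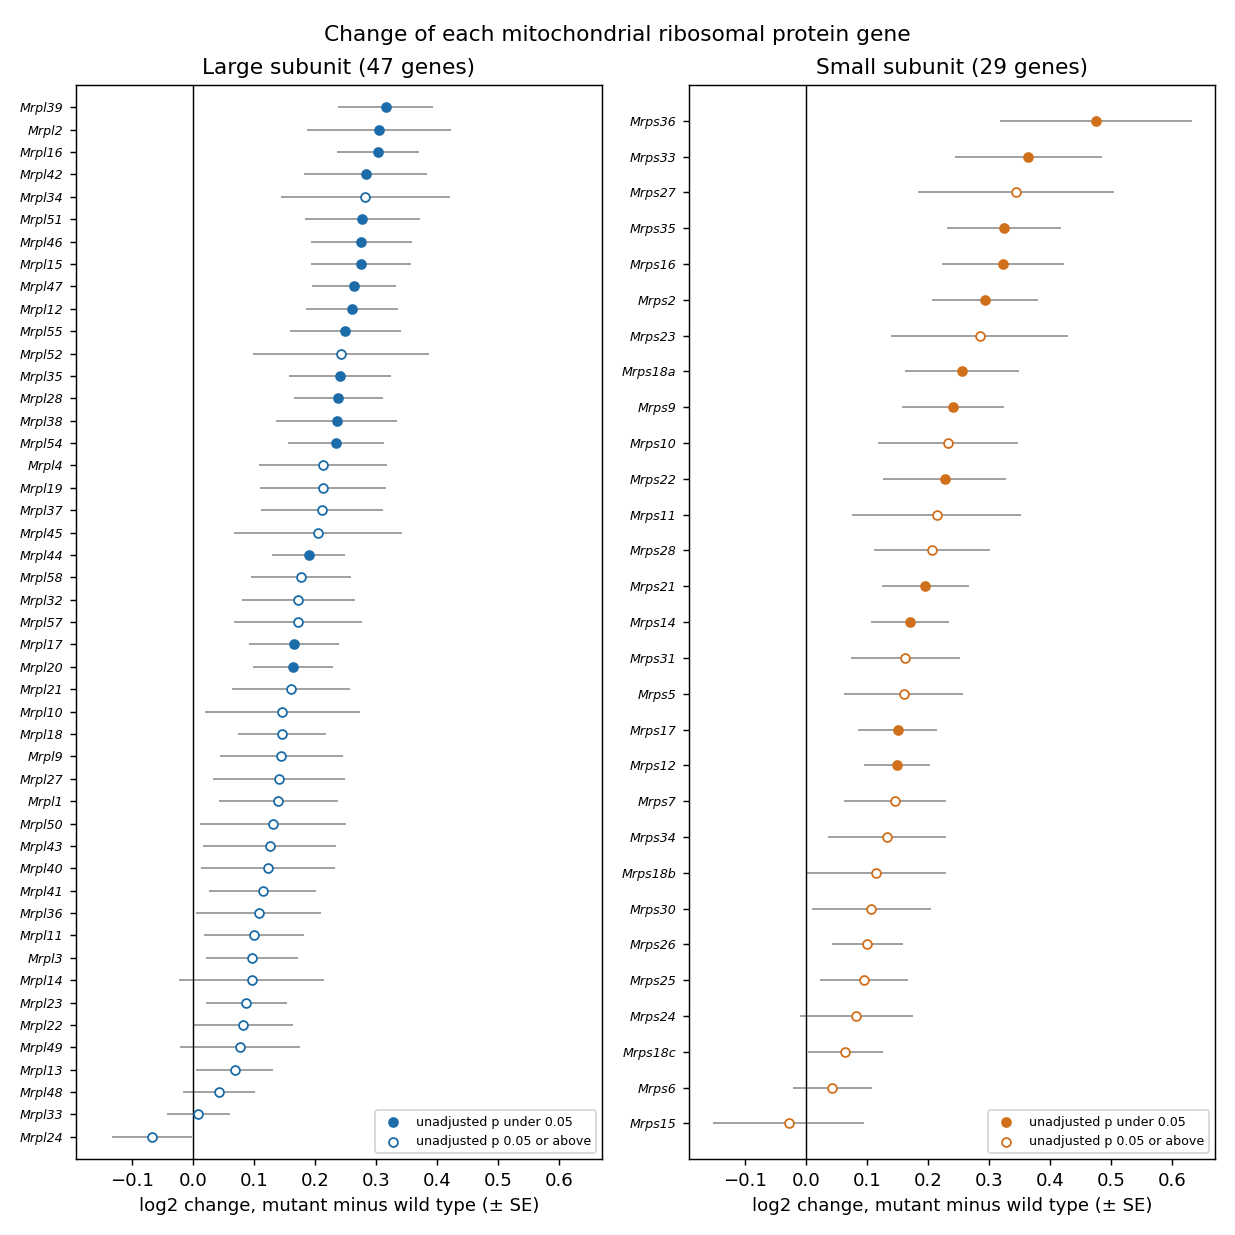
Change of each of the 76 genes (horizontal axis, log2 change of mutant minus wild type, with the limma standard error), large subunit on the left and small subunit on the right; filled points have an unadjusted limma p under 0.05. All but Mrpl24 and Mrps15 lie to the right of 0, and Mrps36 lies farthest out at 0.47.

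The shift was carried unevenly by the arrays. The mean level over the 47 large-subunit genes was 7.69, 7.67, 7.44, 7.47 and 7.52 on the mutant arrays, against 7.39, 7.42, 7.43, 7.38 and 7.30 on the wild-type arrays, in the order F12, F13, F18, F19 and F20 for the mutant and F11, F14_2, F15, F16 and F17 for wild type, an order kept throughout. The same mean over the 29 small-subunit genes was 7.39, 7.35, 7.11, 7.14 and 7.23 on the mutant arrays, against 7.05, 7.10, 7.14, 7.04 and 6.91 on the wild-type arrays. In both subunits the mutant arrays F12 and F13 stood highest and wild-type F17 lowest, while the 3 other mutant arrays lay close to the upper wild-type arrays. The large-subunit means of the groups did not overlap, though mutant F18 and wild-type F15 differed by little, and in the small subunit mutant F18 was below wild-type F15. Of the 76 members 61 had their highest value on mutant F12 or F13, and 31 had their lowest on wild-type F17.

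The mean of the brown fat markers ran in nearly the same order over the arrays. It was 8.59, 8.53, 8.16, 8.26 and 8.34 on the mutant arrays, against 7.98, 7.98, 7.95, 7.83 and 7.51 on the wild-type arrays. Here too F12 and F13 were highest and F17 lowest, and the groups did not overlap. Of these markers Elovl3 had the largest change, 2.57 ± 0.58 (SE), and the gap between the groups in this mean rests in part on it. Elovl3 had levels of 7.61, 5.99, 6.50, 7.21 and 6.32 on the mutant arrays, against 4.80, 3.34, 5.82, 4.46 and 2.34 on the wild-type arrays. No covariate fit was made without Elovl3. The list had 13 of 14 markers bright enough to test, 10 of them above wild type in mean and 3 below. The 3 below were the regulators Prdm16 (-0.27 ± 0.16), Lhx8 (-0.11 ± 0.09) and Ebf2 (-0.02 ± 0.09, SE). Ppargc1a, counted above, had a change of only 0.02 ± 0.29 (SE). None of the 13 was called at a limma adjusted p of 0.05. At an unadjusted limma p of 0.05, 7 were higher, where 5.21% of tested genes were. Some of its markers, such as Ucp1 and Cidea, were bright, and others, such as Lhx8, were near the array median. Its defining marker Ucp1, the uncoupling protein of brown adipocytes, stood at 12.42 ± 0.29 (SD, n = 5) in the mutant and 11.42 ± 0.52 (SD, n = 5) in wild type, and only Zic1 was too dim to test. Cox7a1 and Cox8b in that list also encode mitochondrial proteins. Within groups, that is after the group means were taken out, the members' correlation with this mean over the 10 arrays had a median of 0.63 and was above 0 for 70 of 76, while over all tested genes the median was -0.08. For genes of respiratory complex I that median was 0.78, with 42 of 42 above 0. For cytosolic ribosomal proteins it was -0.70, with 2 of 45 above 0. All these correlations share the same 10 arrays and are given as a description.

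With the brown fat mean as a covariate in the limma fit, the members no longer had mostly higher means in the mutant. Their median change became -0.07, with 31 genes higher and 45 lower in the mutant, where 49.2% of tested genes were higher. No member was higher at an unadjusted limma p of 0.05, where 3.20% of tested genes were. Mrps15, Mrpl50 and Mrpl34 were lower at that level, where 3.95% of tested genes were, and 3 of 76 members is near that share. The median standard error grew to 0.136 with the covariate, against 0.0930 without it, and the brown fat mean had a correlation of 0.84 with group over the 10 arrays. In this fit 0 members passed the adjusted test, where 0.00% of tested genes did. Mrpl39 (0.20), Mrpl28 (0.21) and Mrpl52 (0.31) were among the 31 that stayed above 0. The brown fat signal and the mutation cannot be told apart by these arrays. Skeletal muscle markers averaged more in the mutant for all 15 measured, with 0 at an unadjusted limma p of 0.05. With their mean as a covariate 73 of the 76 members were higher in the mutant, where 45.1% of tested genes were, with a median of 0.16. There 24 were higher at an unadjusted limma p of 0.05, where 4.55% of tested genes were, and 0 passed the adjusted test, where 0.0183% did. Without the 4 arrays richest in skeletal muscle signal, mutant F12, F19 and F20 and wild-type F16, the median was 0.17 and 72 members were higher, where 50.6% of tested genes were. That fit, chosen after seeing the data, had 2 mutant and 4 wild-type arrays, and 8 members were higher at an unadjusted limma p of 0.05, where 2.97% of tested genes were. Among the other marker lists, in the fit without a covariate, 4 of 8 smooth muscle genes were lower and 3 of 7 macrophage and leukocyte genes higher at that level. Of 8 endothelial genes Emcn was higher and Pecam1 lower, and of 7 white fat genes Cidec was higher and Lep lower. The cardiac muscle, fibroblast, Schwann cell and erythroid lists had no gene at that level. Of all tested genes 9.83% were lower and 5.21% higher there. The part of these lists in the result was not tested.

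**Figure D2:**
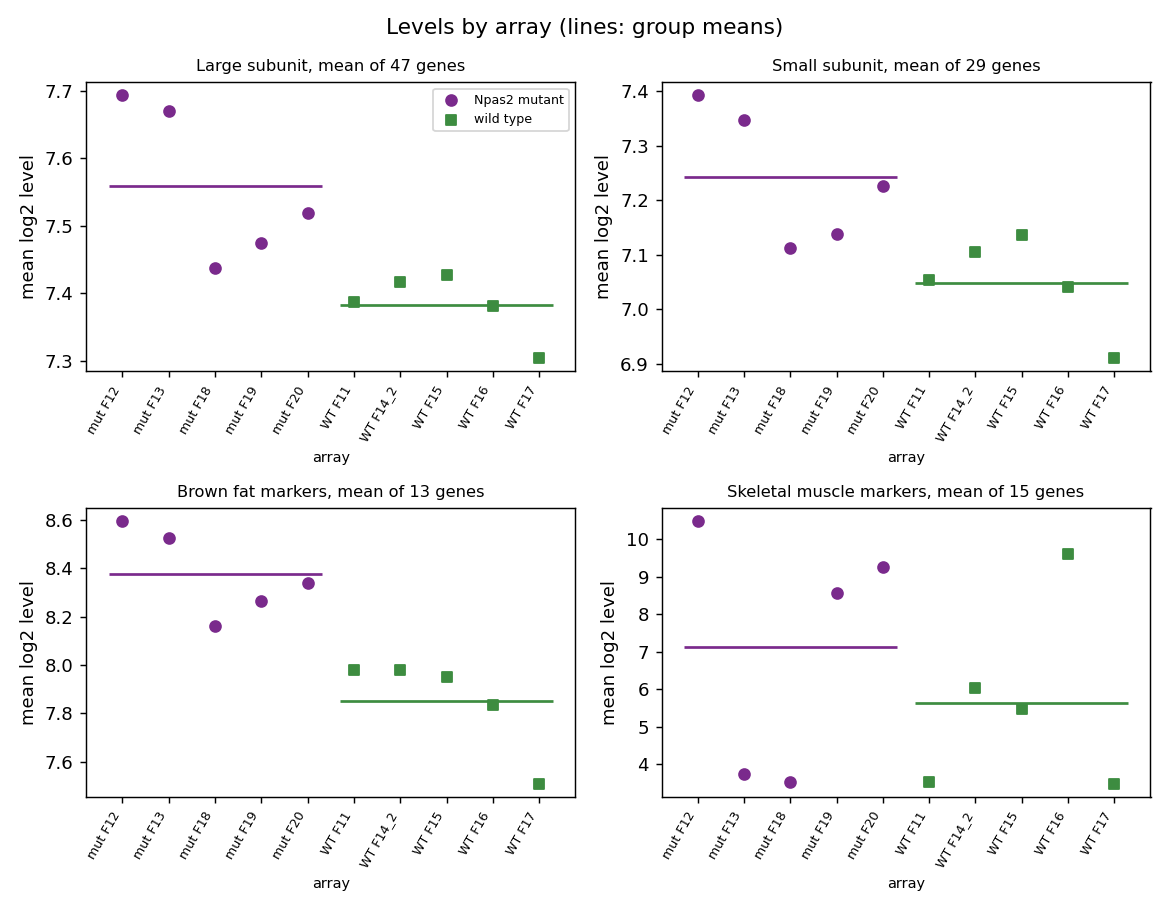
Mean log2 level (vertical axis, not starting at 0) on each array for the large subunit, the small subunit, brown fat markers and skeletal muscle markers; circles are Npas2 mutant and squares wild-type arrays, and lines are group means. Mutant F12 and F13 are highest and wild-type F17 lowest in the large-subunit, small-subunit and brown fat panels, while skeletal muscle follows another order.

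**Figure D3:**
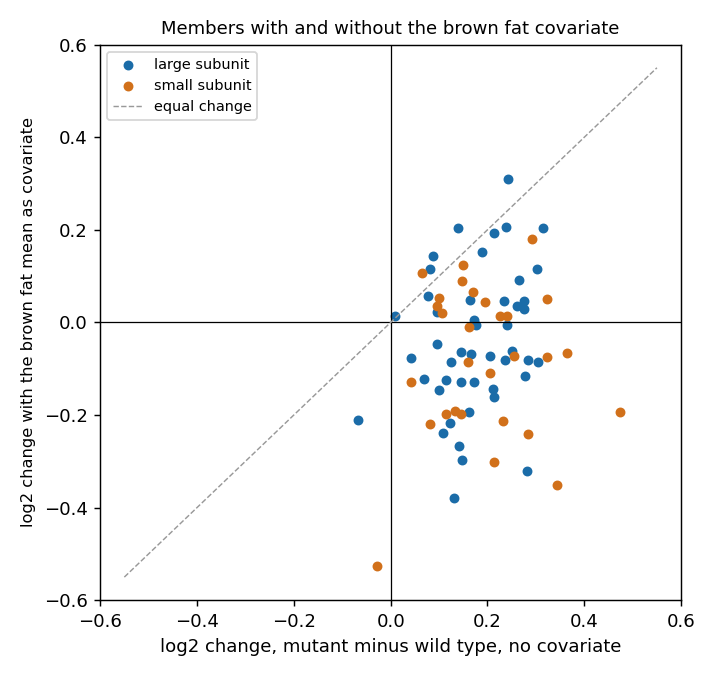
Change of each member without a covariate (horizontal axis) and with the brown fat mean as covariate (vertical axis), both as log2 change of mutant minus wild type; points are genes, coloured by subunit, and the dashed line marks equal change. Of the 76 points 45 lie below 0 on the vertical axis, against 2 left of 0 on the horizontal one.

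The large and the small subunit had close values. The median change was 0.17 in both, with a mean of 0.18 over large-subunit and 0.19 over small-subunit genes. At an unadjusted limma p of 0.05, 17 of 47 large-subunit genes (36.2%) and 12 of 29 small-subunit genes (41.4%) were higher in the mutant. Of all tested genes, 5.21% were higher at that level. The groups did not overlap for 6 large-subunit genes and 1 small-subunit gene, all higher in the mutant, where 1.82% of tested genes separated that way. With 29 small-subunit genes, that 1 gene is near the share of all tested genes. The large-subunit mean minus the small-subunit mean was 0.30, 0.32, 0.32, 0.34 and 0.29 on the mutant arrays, against 0.33, 0.31, 0.29, 0.34 and 0.39 on the wild-type arrays. The mutant values of this difference lay within the range of the wild-type values, so no shift of 1 subunit against the other exceeded the spread between arrays. Protein structures place Mrps18a and Mrps30 in the large subunit, and Mrps36 is now known as a component of the 2-oxoglutarate dehydrogenase complex. With those assignments the mean changes were 0.18 over 49 large-subunit genes and 0.18 over 26 small-subunit genes.

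**Figure D4:**
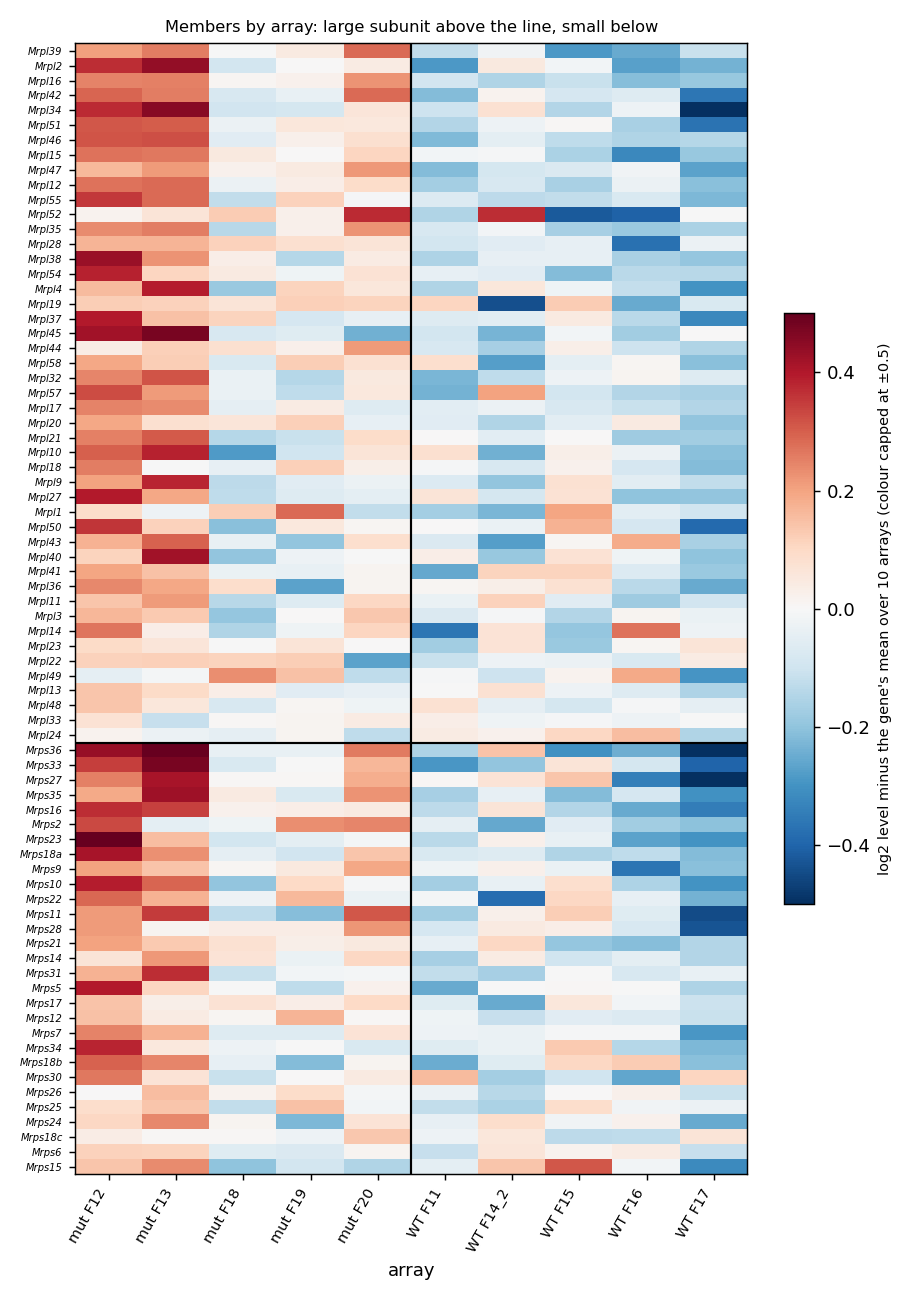
Level of each member on each array relative to the gene's mean over the 10 arrays (log2, red above and blue below, colour capped at ±0.5); large-subunit genes are above the horizontal line, mutant arrays left of the vertical line. The mutant F12 and F13 columns are red in most rows, and the wild-type F17 column is blue in most rows.

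The 5 largest changes belonged to genes named Mrps, the first of them the dehydrogenase component Mrps36, and the next, of Mrpl39 and Mrpl2 in the large subunit, were close behind at 0.32 and 0.31. Mrps36 had log2 levels of 8.15, 8.29, 7.68, 7.68 and 7.98 on the mutant arrays, against 7.56, 7.86, 7.42, 7.47 and 7.09 on the wild-type arrays. Mutant F12 and F13 were highest, and wild-type F14_2 lay above 2 of the mutant arrays. The change was 0.47 ± 0.16 (SE), or 1.39-fold, with a limma adjusted p of 0.202. Mrps33, a small-subunit protein without a bacterial counterpart, had levels of 7.85, 7.98, 7.43, 7.50 and 7.67 on the mutant arrays, against 7.22, 7.31, 7.57, 7.42 and 7.11 on the wild-type arrays, with wild-type F15 above mutant F18 and F19. Its change was 0.36 ± 0.12 (SE, limma adjusted p = 0.203). Mrps35, also without a bacterial counterpart, had levels of 7.08, 7.31, 6.93, 6.81 and 7.11 on the mutant arrays, against 6.72, 6.84, 6.67, 6.80 and 6.58 on the wild-type arrays, where mutant F19 alone was below the highest wild-type array. Its change was 0.32 ± 0.09 (SE, limma adjusted p = 0.166).

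Mrps16, whose bacterial counterpart helps the small subunit to assemble, had levels of 8.47, 8.44, 8.12, 8.13 and 8.14 on the mutant arrays, against 7.97, 8.16, 7.95, 7.85 and 7.76 on the wild-type arrays. The groups overlapped through wild-type F14_2 alone, and the change was 0.32 ± 0.10 (SE, limma adjusted p = 0.183). Mrps27, a protein with RNA-binding repeats, was read on a dim probe set, with levels of 4.74, 4.90, 4.49, 4.49 and 4.67 on the mutant arrays, against 4.49, 4.56, 4.62, 4.15 and 3.76 on the wild-type arrays. Its change was 0.34 ± 0.16 (SE, limma adjusted p = 0.339), with wild-type F16 and F17 far below the other 8 arrays. Mrps27 is 1 of the genes shown above with an ETS motif, and its window also holds the YY1 motif. Mrps12, a protein of the decoding centre, had levels of 7.24, 7.13, 7.10, 7.26 and 7.10 on the mutant arrays, against 7.07, 6.98, 7.04, 7.02 and 6.98 on the wild-type arrays. It was the 1 small-subunit gene whose groups did not overlap, with a small change of 0.15 ± 0.05 (SE, limma adjusted p = 0.237).

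The Mrps18 family offers 3 relatives of a single bacterial protein. Mrps18a had levels of 8.25, 8.06, 7.79, 7.74 and 7.97 on the mutant arrays, against 7.76, 7.77, 7.68, 7.71 and 7.62 on the wild-type arrays, with mutant F12 and F13 highest, mutant F19 below 2 wild-type arrays and a change of 0.26 ± 0.09 (SE, limma adjusted p = 0.237). Mrps18b had levels of 6.64, 6.59, 6.31, 6.13 and 6.36 on the mutant arrays, against 6.10, 6.29, 6.45, 6.48 and 6.14 on the wild-type arrays, with the groups mixed and a change of 0.11 ± 0.11 (adjusted p = 0.633, limma). Mrps18c, the gene with the E-box next to an ETS motif, had levels of 7.90, 7.87, 7.87, 7.84 and 8.0 on the mutant arrays, against 7.84, 7.92, 7.73, 7.74 and 7.93 on the wild-type arrays, also mixed. Its change was 0.06 ± 0.06 (SE, limma adjusted p = 0.622), so none of the 3 passed. Mrps30, which sits in the large subunit, stood at 6.26 ± 0.14 (SD, n = 5) in the mutant and 6.15 ± 0.18 (SD, n = 5) in wild type, a change of 0.11 ± 0.10 (SE, limma adjusted p = 0.604).

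In the large subunit the lowest p belonged to Mrpl16, a protein near the catalytic centre. Its levels were 8.22, 8.22, 7.98, 7.99 and 8.20 on the mutant arrays, against 7.88, 7.82, 7.86, 7.76 and 7.78 on the wild-type arrays. Every mutant array was above every wild-type array, and the change was 0.30 ± 0.07 (SE), or 1.23-fold, with a limma adjusted p of 0.103. Mrpl39, shown above with the NRF1 core, had levels of 10.01, 10.06, 9.81, 9.86 and 10.09 on the mutant arrays, against 9.69, 9.79, 9.52, 9.56 and 9.70 on the wild-type arrays. The groups were again apart, with a change of 0.32 ± 0.08 (SE, limma adjusted p = 0.124), and a second probe set of this gene, 1417966_at, had a change of 0.26 (limma adjusted p = 0.207). Mrpl47, whose bacterial counterpart lies by the exit of the peptide tunnel, had levels of 6.83, 6.88, 6.69, 6.72 and 6.89 on the mutant arrays, against 6.45, 6.58, 6.60, 6.65 and 6.40 on the wild-type arrays. The groups did not overlap, and its change was 0.26 ± 0.07 (SE, limma adjusted p = 0.135).

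Mrpl15, Mrpl28 and Mrpl54 were the other large-subunit genes whose groups did not overlap. Mrpl15 had levels of 8.14, 8.13, 7.92, 7.87 and 7.98 on the mutant arrays, against 7.86, 7.86, 7.71, 7.55 and 7.68 on the wild-type arrays, where mutant F19 exceeded wild-type F14_2 by little. Its change was 0.27 ± 0.08 (SE, limma adjusted p = 0.174), and its 6 other tested probe sets had changes between -0.23 and 0.33, with only the dim 1439988_at below 0. Mrpl28 had levels of 6.82, 6.82, 6.77, 6.74 and 6.72 on the mutant arrays, against 6.56, 6.60, 6.61, 6.28 and 6.62 on the wild-type arrays, with wild-type F16 far below the rest and a change of 0.24 ± 0.07 (SE, limma adjusted p = 0.177). Mrpl54, which has no bacterial counterpart, had levels of 6.84, 6.56, 6.50, 6.43 and 6.52 on the mutant arrays, against 6.41, 6.39, 6.23, 6.32 and 6.31 on the wild-type arrays. Mutant F12 stood above all others there, and the change was 0.23 ± 0.08 (SE, limma adjusted p = 0.208).

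Mrpl12 is a stalk protein that is also known to bind the mitochondrial RNA polymerase. Its levels were 8.85, 8.86, 8.54, 8.61 and 8.67 on the mutant arrays, against 8.40, 8.49, 8.41, 8.54 and 8.36 on the wild-type arrays, with wild-type F16 level with mutant F18. The change was 0.26 ± 0.07 (SE, limma adjusted p = 0.164). Mrpl51, read on a bright probe set, stood at 10.82 ± 0.16 (SD, n = 5) in the mutant and 10.54 ± 0.15 (SD, n = 5) in wild type, a change of 0.28 ± 0.09 (SE, limma adjusted p = 0.207). Mrpl55 and Mrpl14, among the dim members, had changes of 0.25 ± 0.09 and 0.10 ± 0.12 (SE, limma adjusted p = 0.235 and 0.712).

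On the probe sets chosen, Mrpl24 and Mrps15 were the members with a lower mean in the mutant. Mrpl24, whose bacterial counterpart lies by the exit tunnel, had levels of 9.40, 9.35, 9.34, 9.39 and 9.25 on the mutant arrays, against 9.42, 9.40, 9.49, 9.53 and 9.23 on the wild-type arrays. All 5 mutant arrays were below the wild-type mean, but wild-type F17 was the lowest of all and the change was -0.07 ± 0.07 (SE, limma adjusted p = 0.629). Mrps15 had levels of 7.91, 8.01, 7.57, 7.68 and 7.62 on the mutant arrays, against 7.72, 7.91, 8.09, 7.76 and 7.46 on the wild-type arrays, fully mixed, with a change of -0.03 ± 0.12 (SE, limma adjusted p = 0.926). A second probe set of Mrps15, 1449294_at, nearly as bright, had a change of 0.04 in the other direction. Neither gene's difference exceeded the spread between arrays.

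Members with and without a bacterial counterpart, as given by current protein names, were set side by side. By those names Mrps18a and Mrps18b count as without a counterpart, though they are relatives of a bacterial protein. All 31 without a counterpart averaged higher in the mutant, with a median change of 0.21. The 45 with one had a median change of 0.16, with 43 higher and 2 lower. At an unadjusted limma p of 0.05, 12 of the 31 (38.7%) and 17 of the 45 (37.8%) were higher, where 5.21% of tested genes were. Members whose promoter held the YY1 motif had a median change of 0.23, against 0.16 for the other members with a window. For the ETS motif the medians were 0.13 with and 0.17 without it, for the NRF1 core 0.15 and 0.17, and for the E-box 0.16 and 0.16. These differences were not tested and rest on 5 to 12 genes each.

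Of the members, 34 had a single probe set and 42 had several. The other 45 tested probe sets of members had a higher mean in the mutant 36 times and a lower one 9 times, with a median change of 0.10. None was called at a limma adjusted p of 0.05, and 7 were higher and 0 lower at an unadjusted p of 0.05. Over all tested genes, read on 1 probe set each, 5.21% were higher and 9.83% lower at that level. Probe sets of 4 genes disagreed in sign by more than 0.3, namely Mrpl15, Mrpl52, Mrps5 and Mrps9. For Mrpl52, a member without a bacterial counterpart, the brightest probe set had a change of 0.24 ± 0.14 (SE, limma adjusted p = 0.433) and 1415761_at one of -0.06. For Mrps5 the brightest had a change of 0.16 ± 0.10 (limma adjusted p = 0.444) and 1453954_a_at one of -0.21. For Mrps9 the values were 0.24 ± 0.08 (limma adjusted p = 0.215) and -0.08 on the dim 1439210_at. Mrps9 is also the 1 member within 20 Mb of Npas2, at 3.66 Mb in RefSeq, and whether the mutants share alleles there was not tested. The members lay on 17 chromosomes.

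Across arrays the members tended to vary together, with lower correlations than genes of respiratory complex I or cytosolic ribosomal proteins. The pairwise median was not computed over all tested genes, so these values have no background. With group means taken out, the median correlation over all 2850 pairs of members was 0.41, and 81.6% of pairs were above 0. It was 0.40 within the large and 0.43 within the small subunit. Subunits and assembly factors of respiratory complex I, taken by the symbol Nduf, had a median of 0.79 over 861 pairs. Cytosolic ribosomal proteins had one of 0.50 over 990 pairs. All pairs share the same 10 arrays.

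Mitoribosomal proteins that carry other names had higher means as well. This held for all 4 measured, and 3 of them were higher at an unadjusted limma p of 0.05, where 5.21% of tested genes were. Ptcd3, an RNA-binding protein of the small subunit, had levels of 7.38, 7.18, 7.00, 6.97 and 7.09 on the mutant arrays, against 6.77, 6.72, 7.04, 6.93 and 6.62 on the wild-type arrays, with wild-type F15 above mutant F18 and F19 and a change of 0.31 ± 0.10 (SE, limma adjusted p = 0.202). Gadd45gip1, a large-subunit protein, had levels of 6.89, 6.62, 6.47, 6.63 and 6.53 on the mutant arrays, against 6.42, 6.24, 6.42, 6.46 and 6.40 on the wild-type arrays. Its groups did not overlap, and its change was 0.24 ± 0.08 (SE, limma adjusted p = 0.213). Chchd1 and Dap3, both of the small subunit, had changes of 0.16 ± 0.06 and 0.11 ± 0.07 (SE, limma adjusted p = 0.257 and 0.468).

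Other genes of mitochondrial gene expression had median changes of at most 0.17. Over all tested genes 44.1% were higher in mean, and at an unadjusted limma p of 0.05 5.21% were higher and 9.83% lower. With 13 translation factors and 21 synthetase genes, the counts of those 2 lists at that level, given below, are near the share of all tested genes. Translation factors and their membrane partners had a median change of 0.12, with 9 of 13 higher in mean and 1 at an unadjusted limma p of 0.05, Letm1. That list also holds Tfam, which is in the transcription list too and whose own change of 0.12 is the median. Letm1, an inner-membrane protein, had a change of 0.53 ± 0.19 (SE) and Gfm2, which recycles the ribosome, one of 0.38 ± 0.20 (SE, limma adjusted p = 0.228 and 0.379). Aminoacyl-tRNA synthetases and amidotransferase subunits had a median of 0.09, with 16 of 21 higher in mean and 2 at that level. These were Gatb, an amidotransferase subunit, at 0.41 ± 0.13 and Yars2, the tyrosine enzyme, at 0.34 ± 0.13 (SE, limma adjusted p = 0.191 and 0.265). Assembly factors had a median of 0.05, with 17 of 23 higher in mean and 3 at that level, Rbfa, Malsu1 (0.18 ± 0.08) and Mterf4 (0.27 ± 0.11, SE). Among them Rbfa, a factor that binds the small subunit, had a change of 0.36 ± 0.13 (SE, limma adjusted p = 0.242). Mettl17, which did not reach that level, had one of -0.28 ± 0.14 (SE, limma adjusted p = 0.366). Genes of mitochondrial transcription and RNA handling had a median of 0.17, with 14 of 19 higher in mean, 5 higher and 1 lower, Fastkd3 at -0.18 ± 0.07 (SE), at an unadjusted limma p of 0.05. The 5 were Hsd17b10, Tefm, Slirp, the mitochondrial RNA polymerase Polrmt at 0.30 ± 0.08 (SE) and Mterf2 at 0.35 ± 0.12 (SE). The groups of Hsd17b10, Polrmt and Mterf2 did not overlap, all higher in the mutant, where 1.82% of tested genes separated that way. Hsd17b10, a subunit of mitochondrial RNase P, had a change of 0.37 ± 0.09, and Tefm, a transcription elongation factor, one of 0.39 ± 0.17 (SE, limma adjusted p = 0.127 and 0.294). In all 5 of these lists 0 genes were called at a limma adjusted p of 0.05, where 0.183% of tested genes were.

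Complex I and the cytosolic ribosome frame the members. Of 42 tested Nduf genes, 41 averaged higher in the mutant, 23 at an unadjusted limma p of 0.05, where 5.21% of tested genes were. Their median change was 0.22. Ndufaf6, an assembly factor, and Ndufs8, an iron-sulfur subunit, had changes of 0.41 ± 0.20 and 0.35 ± 0.12 (SE, limma adjusted p = 0.358 and 0.217). Of 45 cytosolic ribosomal protein genes, 34 had a lower mean in the mutant, with a median change of -0.05. At an unadjusted limma p of 0.05, Rps27l (0.17 ± 0.07, SE) was higher, where 5.21% of tested genes were. Rpl4 (-0.12 ± 0.05) and Rpl8 (-0.14 ± 0.06) were lower at that level, where 9.83% of tested genes were. Such genes have many near-identical pseudogenes, which probe sets may not separate. Rpl12 and Rpl14, both dim here, had changes of -0.21 ± 0.21 and -0.21 ± 0.26 (SE, limma adjusted p = 0.625 and 0.714). When brown fat was the covariate, the medians were -0.13 for the Nduf genes and 0.11 for the cytosolic ribosomal proteins. Both medians changed sign, as that of the members did. The medians of the cytosolic list and of the members thus differed in sign in both fits, and that difference was not tested.

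**Figure D5:**
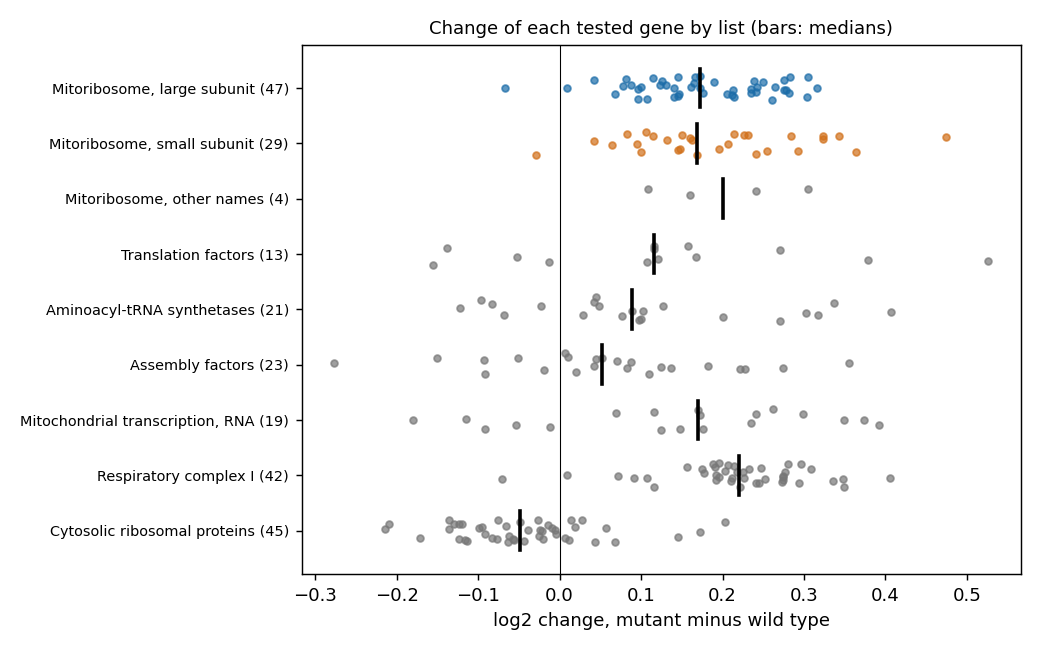
Log2 change of mutant minus wild type (horizontal axis) for each tested gene of 9 lists, with bars at the medians and the number of genes in brackets. The large and small mitoribosomal subunits centre on 0.17, complex I on 0.22 and cytosolic ribosomal proteins on -0.05.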

How the data were processed

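The files hold the authors' log2 expression values for 45101 probe sets on 10 arrays, summarised from probes and normalised before they were deposited. GCRMA and MAS5 are named in the submitters' processing notes, without versions, and which of them produced the values is not stated. That they are log2 was read from their range, 1.10 to 14.71 without controls. No scan or hybridisation dates were at hand, so batches were not examined. Gene names are those of the platform annotation, and all 76 members keep their symbol in RefSeq.

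A probe set entered the test if 5 or more arrays had it above that array's median, which 22340 did. Strain was the only term of the limma 3.58.1 fit (lmFit and eBayes, R 4.3.3), with mutant minus wild type as contrast and p values adjusted by Benjamini-Hochberg across the 22340. Background shares count 1 probe set per gene, the one with the highest mean. The covariate fits add the mean of a marker list. The fitting script was first tested on simulated data.

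Genes are named by a rule that took the largest changes, the highest and lowest signals, groups without overlap, disagreeing probe sets and a few genes by name. Other names (Mrpl2, Mrpl20, Mrpl34, Mrpl36, Mrpl37 and Mrpl50, and some genes of the pathway lists) were chosen after their values were seen. The members, lists and rule were chosen with earlier results of these data known. From the cytosolic list 8 symbols (kinases, a binding protein and a pseudogene) were left out after the values were seen, and Tfam is in 2 lists.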

Additional observations from a re-analysis of the deposited data

Results flagged for a closer look

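Among 92 groups of 5 values examined (the named genes and the list means), 2 held an array that stood far from the others by Dixon's criterion, where chance flags about 1 in 20 groups. For Mrpl28 in wild type, array F16 had a log2 level of 6.28, below the other 4 wild-type arrays at 6.56 to 6.62. For Gadd45gip1 in wild type, array F14_2 had a level of 6.24, below the other 4 at 6.40 to 6.46. Both low values lie on the side that enlarges the change of that gene.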

How the results depend on the processing

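With 5 arrays a group, standard errors of the members ran from 0.05 to 0.16, against a median change of 0.17. Leaving out each array in turn, the number of members higher at an unadjusted limma p of 0.05 ran from 22 to 37, the median change from 0.14 to 0.21 and the number with a higher mean from 73 to 75, with 0 called in every such fit. Under the other filters, scalings, variance models, probe set choices and the skeletal muscle covariate these ran from 24 to 42, from 0.13 to 0.20 and from 69 to 74. The mean change of the large minus that of the small subunit ran from -0.029 to -0.0036 in these fits and was 0.042 with the brown fat covariate. No paired analysis was possible because the replicate identifiers are not shared between the groups.

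The brown fat covariate moved more of these values than the other settings did, and the cause was not tested. Members higher at an unadjusted p of 0.05 numbered 0, members lower 3 and members with a higher mean 31. Median changes with it were -0.067 for all members, -0.065 for the large and -0.072 for the small subunit, and -0.072 for members without and -0.062 for members with a bacterial counterpart. They were 0.079 for mitoribosomal proteins under other names, -0.12 for translation factors, -0.045 for aminoacyl-tRNA synthetases, -0.13 for complex I and 0.11 for cytosolic ribosomal proteins. With it 43 of the 74 members that were higher turned to lower. Among the members and other genes that the naming rule took, those that turned in sign were Mrps36 (-0.19), Mrps33 (-0.065), Mrps27 (-0.35), Mrps16 (-0.074), Mrpl51 (-0.12), Mrpl55 (-0.062), Mrps18a (-0.072), Mrps18b (-0.20), Mrps5 (-0.086), Ptcd3 (-0.019), Letm1 (-0.31), Gfm2 (-0.48), Gatb (-0.0037), Rbfa (-0.036), Ndufaf6 (-0.17), Ndufs8 (-0.18), Rpl12 (0.45) and Rpl14 (0.021). Only Gfm2 among them had an unadjusted limma p under 0.05 in that fit (0.037, adjusted 0.628). Several values were small beside their standard errors, such as those of Gatb (SE 0.19), Rpl14 (SE 0.50), Ptcd3 (SE 0.15) and Mrps33 (SE 0.16).

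Without the 4 arrays whose skeletal muscle mean was above 8, chosen after seeing the data, 8 members were higher at an unadjusted p of 0.05, from fewer arrays. Mrps30 became -0.021 and Rpl14 0.15 there. Mrps5 became -0.031 with its probe sets averaged. Mrps15 changed sign without wild-type F14_2, wild-type F15, mutant F18 or mutant F20, with values from -0.11 to 0.045 over all such fits.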
